A study of Mus musculus with 36 samples.

Results

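The 40 genes described here carry proteins into the endoplasmic reticulum (ER), glycosylate them there and package them for export. They were chosen by symbol from the 54735 gene symbols of the deposited table, and all 40 passed the filter on low values that left 16083 genes for testing. By role they comprise 6 genes of the signal recognition particle (SRP) and its receptor, 6 of the Sec61 channel and its partners, 4 of the translocon-associated (TRAP) complex, 5 of signal peptidase, 6 of oligosaccharyltransferase, 10 of the COPII coat and its SAR1 GTPases, and 3 cargo receptors.

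Secretory proteins are recognised at the ribosome by SRP, docked at the ER membrane and threaded through the Sec61 channel, while signal peptidase removes their leader and oligosaccharyltransferase attaches a preassembled glycan to asparagine. Folded cargo then leaves in vesicles coated by COPII, in which SAR1 recruits the Sec23-Sec24 inner coat and Sec13-Sec31 forms the outer cage. When unfolded protein builds up in the ER, the unfolded protein response, in which XBP1 and ATF6 act as transcription factors and PERK phosphorylates eIF2alpha, is known to adjust the capacity of this route. GCN2 phosphorylates the same factor when amino acids run short.

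RNA was sequenced from mouse embryonic fibroblasts (MEFs) labelled as deleted for GCN2, deleted for PERK, or wild type (WT). Each line was starved for 6 h in RPMI 1640 SILAC medium without lysine and arginine, or given 200 nM thapsigargin for 6 h. Thapsigargin blocks the ER calcium pump. Other cells of each line were given the solvent DMSO or left untreated, with no time listed for either. All cells had been grown in RPMI 1640 with fetal bovine serum. The 12 groups held 3 libraries each, which the labels call technical replicates of 1 line per genotype, so genotype and line cannot be told apart, and p-values measure only the spread between such replicates. No control for either stress is named in the labels. Starved cells were set against untreated cells and thapsigargin-treated cells against DMSO-treated cells. Fewer cells of a kind and less RNA per cell cannot be told apart in these bulk values.

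In the GCN2-deletion line the untreated level of Eif2ak4, which encodes GCN2, was 5.25 ± 0.619 TPM (mean ± SD, n = 3, here and below), against 24.6 ± 3.81 TPM in WT. Eif2ak3, which encodes PERK, stood at 4.22 ± 0.353 TPM in the untreated PERK-deletion line, against 6.99 ± 0.878 TPM in WT. What was removed from either gene is not given in the labels. Hspa5, the ER chaperone BiP, averaged 3632 ± 145 TPM with thapsigargin and 622 ± 21.8 TPM with DMSO in the GCN2-deletion line. Its means were 3405 ± 32.7 TPM with thapsigargin and 493 ± 21.2 TPM with DMSO in the PERK-deletion line, and 4940.0 ± 203 TPM with thapsigargin and 692 ± 31.1 TPM with DMSO in WT. Of 9 fibroblast markers 5 were at 1 TPM or more in every library, with Vim highest, while Lum stayed below 1 TPM in all. Of 4 markers each for other cell types, 3 of leukocytes (Ptprc, Csf1r, Itgam), 3 of epithelium (Epcam, Cdh1, Krt8), 2 of endothelium (Cdh5, Tek) and 2 of muscle (Myod1, Myog) stayed below 1 TPM in every library, and neural Sox10 was listed at 0. The highest of the others were leukocyte Cd68 at 10.3 TPM, endothelial Pecam1 at 4.28 TPM, muscle Des at 4.14 TPM, epithelial Krt18 at 1.02 TPM and neural Tubb3 at 44.8 TPM, and Cd68 was at 1 TPM or more in every library. Summed over a list, they ran from 3.23 to 10.7 TPM for leukocytes, 0.367 to 2.15 TPM for epithelium, 0.452 to 6.84 TPM for endothelium, 0.962 to 4.45 TPM for muscle and 13.4 to 45.4 TPM for neural cells. The summed fibroblast markers moved with the groups: untreated they lay between 5484 and 5569 TPM in the GCN2-deletion line and between 2363 and 2437 TPM in the PERK-deletion line, against 4144 to 4311 TPM in WT. With thapsigargin they lay between 3099 and 3256 TPM in WT, against 3942 to 3971 TPM with DMSO. The summed neural markers also separated between the untreated lines. They lay between 25.4 and 32.2 TPM in GCN2-deletion cells and between 18.3 and 21.7 TPM in PERK-deletion cells, against 34.8 to 43.6 TPM in WT. The part of these markers in the results below was not tested. Mitochondrial transcripts took 4.27% to 9.49% and microRNA symbols 0.596% to 2.81% of TPM per library. WT untreated replicate 1 had the highest mitochondrial share (9.49%, against 7.26% and 7.54% in its group), and 6 libraries held more than 1.5% of microRNA symbols. The lowest correlation of log2(TPM + 1) between libraries of any group, 0.9621, was that of WT untreated replicates 1 and 3.

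Promoter windows of 250 bases before to 50 bases after the transcription start (RefSeq, GRCm38.p6) were given for 32 of the 40 genes. The motif TGACGTG, the core of the element bound by XBP1 and ATF6 (UPRE), was found on either strand in 2 of them, Sec23a and Sec24d (6.25%), and in 2.22% of the 27025 genes with a window. The ER stress elements ERSE (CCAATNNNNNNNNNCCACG) and ERSE-II (ATTGGNCCACG) and the C/EBP-ATF composite TGATGNAA occurred in 0 of the 32, against 0.137%, 0.0444% and 4.51% of all genes with a window. None of these motifs overlapped another in the windows shown. Both matches lay in genes of the COPII inner coat whose values are described below, and the stretches from 70 bases before to 30 bases after the start are printed for them, with Sec23b, the paralogue of Sec23a, for comparison. Capitals mark TGACGTG, which began at position 7 of the transcript in Sec23a (the start being position 1) and 26 bases before the start in Sec24d. Sec23b has 2 windows in the table and the first is shown, with none of the motifs.
Sec23a (chr12:59011988-59012087, minus strand): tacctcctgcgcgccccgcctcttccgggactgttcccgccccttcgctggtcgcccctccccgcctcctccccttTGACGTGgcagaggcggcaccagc
Sec24d (chr3:123267426-123267525, plus strand): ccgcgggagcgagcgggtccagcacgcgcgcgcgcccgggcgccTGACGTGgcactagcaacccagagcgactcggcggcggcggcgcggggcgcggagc
Sec23b (chr2:144556159-144556258, plus strand): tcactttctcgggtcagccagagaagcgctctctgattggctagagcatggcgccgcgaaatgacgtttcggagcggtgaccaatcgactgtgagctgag
A match describes these letters in these windows and is no measure of binding.

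All 40 genes were well above the filter: every library held at least 5 TPM of each, and the values ran from 11.7 TPM for Sec24a to 406 TPM for Ssr2. In untreated WT cells the lowest mean was that of Sec24a, at 17.2 ± 4.81 TPM, followed by Sec23a at 20.8 ± 2.94 TPM, and the libraries of this pair overlapped. The highest were Ssr2 at 308 ± 37.2 TPM and Rpn2 at 268 ± 15.3 TPM. Summed over the 40 genes, untreated cells held 5096 ± 53.5 TPM in the GCN2-deletion line and 4807 ± 177 TPM in the PERK-deletion line, against 4568 ± 154 TPM in WT. All 40 matched the GENCODE M21 annotation as protein-coding genes. Exons of 13 overlap a gene on the other strand and those of Srprb and Sec11a one on the same strand, so their values may hold shared reads: the sources used here do not say whether quantification used strand. The table also lists a symbol Spcs2-ps.

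Thapsigargin raised genes of every role in at least 1 line, by less than 2-fold in each case. Of the 40 genes, 21 rose and 3 fell in GCN2-deletion cells, where the test called 36.7% of all genes, 25.4% higher and 11.3% lower. In PERK-deletion cells 17 rose and 0 fell, with 5.3% of all genes, 2.5% higher and 2.8% lower. WT had 15 that rose and 0 that fell, with 26.3% of all genes, 11.4% higher and 14.8% lower. At an unadjusted p under 0.05 limma gave 0 lower in PERK-deletion cells and 2 lower in WT. The median log2 change of the 40 was 0.23 in GCN2-deletion cells (all genes 0.08), 0.24 in PERK-deletion cells (all genes -0.04) and 0.11 in WT (all genes -0.04). Their summed level was 5704 ± 238 TPM with thapsigargin and 5110.1 ± 134 TPM with DMSO in GCN2-deletion cells. It was 5925 ± 41.7 TPM with thapsigargin and 4916 ± 166 TPM with DMSO in PERK-deletion cells, and 5047 ± 61.2 TPM with thapsigargin and 4627 ± 64.7 TPM with DMSO in WT. The libraries with thapsigargin and with DMSO did not overlap for 27 of the 40 genes in GCN2-deletion cells (44.3% of all genes), 33 in PERK-deletion cells (28.1%) and 21 in WT (39.7%). In GCN2-deletion cells the summed fibroblast markers lay between 4209 and 4493 TPM with thapsigargin, against 5154 to 5278 TPM with DMSO, and the summed neural markers, mostly Tubb3, between 37.5 and 43.0 TPM with thapsigargin, against 22.5 to 28.2 TPM with DMSO. The summed endothelial markers there lay between 5.15 and 6.84 TPM with thapsigargin, against 2.20 to 3.89 TPM with DMSO. In PERK-deletion cells the fibroblast sums overlapped, at 2428 to 2578 TPM with thapsigargin and 2330 to 2510 TPM with DMSO, and the neural sums did not, at 18.3 to 20.6 TPM with thapsigargin and 16.8 to 17.7 TPM with DMSO. The part of these markers was not tested.

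Rescaling the libraries by the median of ratios changed the split in each line. In GCN2-deletion cells it turned 21 higher and 3 lower into 17 higher and 6 lower, while the share of higher calls among all genes was 49.2% rather than 69.3%. In PERK-deletion cells it gave 27 higher and 0 lower, with 59.1% of all calls higher rather than 47.1%. WT changed from 15 higher and 0 lower to 18 higher and 1 lower, with 48.1% of all calls higher rather than 43.5%. Untreated cells in place of DMSO gave 26 calls in PERK-deletion cells.

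**Figure D1:**
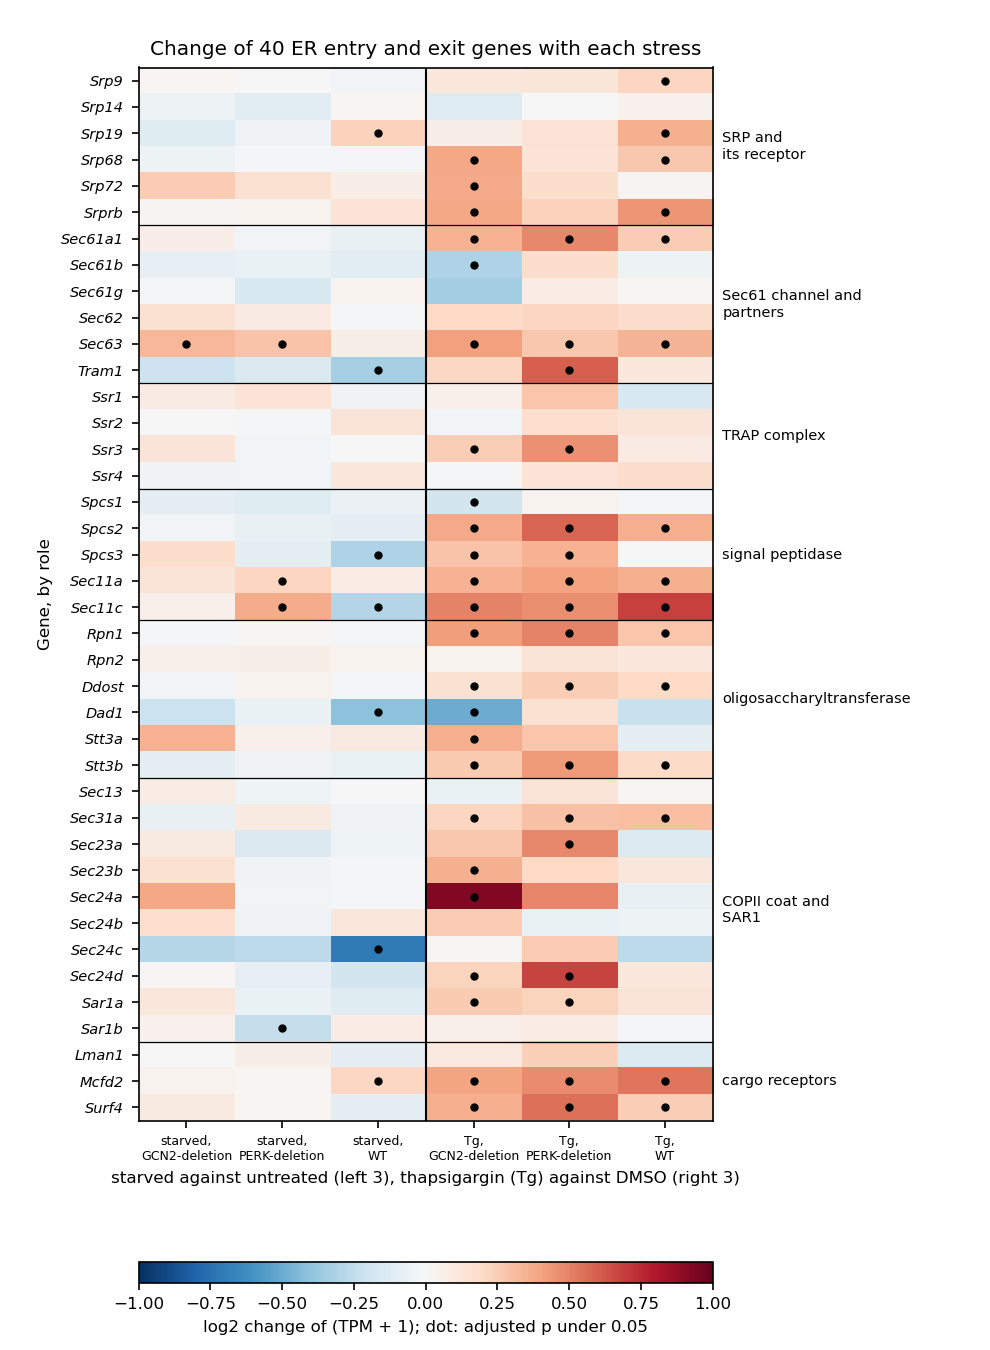
Log2 change of each of the 40 genes (rows, grouped by role) with starvation against untreated cells (left 3 columns) and with thapsigargin against DMSO (right 3 columns) in the GCN2-deletion, PERK-deletion and WT lines; colour runs from -1 (blue) to 1 (red) and dots mark adjusted p under 0.05. In the thapsigargin columns dots mark 21, 17 and 15 genes higher and 3, 0 and 0 lower. There 16, 23 and 25 genes carry no dot. The starvation columns hold fewer dots (1, 3 and 2 genes higher, 0, 1 and 5 lower).

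The genes that rose in all 3 lines numbered 11 and came from 5 roles: Sec61a1 and Sec63 of the channel, Spcs2, Sec11a and Sec11c of signal peptidase, Rpn1, Ddost and Stt3b of oligosaccharyltransferase, Sec31a of the outer COPII cage, and the cargo receptors Mcfd2 and Surf4. A further 14 rose in 1 or 2 lines, and 15 rose in none: Srp14, Sec61b, Sec61g, Sec62, Ssr1, Ssr2, Ssr4, Spcs1, Rpn2, Dad1, Sec13, Sec24b, Sec24c, Sar1b and Lman1. Some of these calls rested on single libraries. In WT the call ended for Stt3b without WT thapsigargin replicate 1 or 3 or WT DMSO replicate 2 or 3 (highest adjusted p = 0.128). Among GCN2-deletion cells it ended for Ddost without GCN2-deletion thapsigargin replicate 1 or 3 or GCN2-deletion DMSO replicate 1 (highest adjusted p = 0.0567) and for Sec31a without GCN2-deletion thapsigargin replicate 1 or 3 or GCN2-deletion DMSO replicate 2 or 3 (highest adjusted p = 0.115). Among PERK-deletion cells it ended for Sec63 without PERK-deletion thapsigargin replicate 1, 2 or 3 or PERK-deletion DMSO replicate 2 or 3 (highest adjusted p = 0.192) and for Sec31a without PERK-deletion thapsigargin replicate 1 or 3 or PERK-deletion DMSO replicate 1 or 3 (highest adjusted p = 0.0783).

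Among SRP genes, Srprb, the membrane-anchored GTPase subunit of the SRP receptor, rose in GCN2-deletion cells and in WT. Its levels in GCN2-deletion cells were 74.7, 66.8 and 71.2 TPM with thapsigargin, against 55.4, 53.6 and 52.5 TPM with DMSO (log2 change 0.39, SE 0.071, adjusted p = 8.02e-05). WT cells held 64.96, 66.3 and 63.6 TPM with thapsigargin, against 46.4, 48.6 and 47.6 TPM with DMSO (log2 change 0.44, SE 0.071, adjusted p = 2.17e-05). In both lines all thapsigargin libraries lay above all DMSO libraries, and Srprb shares exon sequence with an overlapping gene model on its strand. PERK-deletion cells gave 65.2, 63.4 and 65.7 TPM with thapsigargin, against 55.99, 56.5 and 52.4 TPM with DMSO (log2 change 0.23, SE 0.071, adjusted p = 0.0542), which did not pass although its libraries did not overlap. Srp68, which pairs with Srp72 in the particle, rose in GCN2-deletion cells (log2 change 0.38, adjusted p = 1.02e-07) and in WT (0.27, adjusted p = 4.05e-05). Srp19, which binds the particle's RNA, stood in WT at 91.1, 94.6 and 97.96 TPM with thapsigargin, against 73.98, 70.5 and 76.98 TPM with DMSO (log2 change 0.35, SE 0.075, adjusted p = 0.000624), without overlap. Srp72 passed in GCN2-deletion cells alone (0.38, adjusted p = 0.00316) and Srp9 in WT alone (0.22, adjusted p = 0.0138; not passing without WT thapsigargin replicate 3 with adjusted p = 0.0829), but neither response was shown to differ between lines. Srp14 passed in no line.

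Sec61a1, the pore of the translocation channel, rose in each line. In PERK-deletion cells it stood at 267, 265 and 269.7 TPM with thapsigargin, against 194, 203 and 179 TPM with DMSO (log2 change 0.48, SE 0.057, adjusted p = 8.69e-07). GCN2-deletion cells held 257, 232 and 249 TPM with thapsigargin, against 201, 188 and 192 TPM with DMSO (log2 change 0.34, SE 0.057, adjusted p = 2.28e-05). WT values were 199, 199.6 and 191 TPM with thapsigargin, against 168, 164 and 162 TPM with DMSO (log2 change 0.25, SE 0.057, adjusted p = 0.00118). The high and low libraries separated fully in all 3. Sec63, the J-domain protein that recruits BiP to the channel, reached 96.1, 87.7 and 91.5 TPM with thapsigargin, against 77.9, 64.2 and 65.5 TPM with DMSO (log2 change 0.41, SE 0.079, adjusted p = 0.000183) in GCN2-deletion cells. These did not overlap. Tram1, a membrane protein that helps some signal sequences insert, stood in PERK-deletion cells at 90.9, 91.4 and 91.1 TPM with thapsigargin, against 61.3, 61.7 and 57.1 TPM with DMSO (log2 change 0.60, SE 0.10, adjusted p = 0.000295). All thapsigargin libraries were nearly equal and above all DMSO libraries. GCN2-deletion cells held 69.3, 68.97 and 69.2 TPM with thapsigargin, against 60.4, 60.1 and 58.5 TPM with DMSO (log2 change 0.21, SE 0.10, adjusted p = 0.12), which did not overlap and did not pass. In WT the values of Tram1 overlapped, at 56.8, 49.99 and 53.02 TPM with thapsigargin, against 50.3, 46.5 and 51.1 TPM with DMSO (log2 change 0.11, SE 0.10, adjusted p = 0.515). The small channel subunit Sec61b went the other way in GCN2-deletion cells, at 163, 161 and 171 TPM with thapsigargin, against 186, 213 and 217 TPM with DMSO (log2 change -0.31, SE 0.090, adjusted p = 0.0075), with no overlap. Sec61g and Sec62 passed in no line.

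Of the 4 TRAP genes, whose complex sits beside the channel and helps some substrates enter, Ssr3 passed in both deletion lines. Its levels in PERK-deletion cells were 273, 285 and 275 TPM with thapsigargin, against 209, 200.3 and 197 TPM with DMSO (log2 change 0.46, SE 0.065, adjusted p = 1.51e-05). In GCN2-deletion cells they were 303, 275 and 292 TPM with thapsigargin, against 240.2, 245 and 246 TPM with DMSO (log2 change 0.25, SE 0.065, adjusted p = 0.00353). All thapsigargin libraries were the higher ones in both lines. WT held 217, 194 and 207 TPM with thapsigargin, against 203, 178 and 204 TPM with DMSO (log2 change 0.08, SE 0.065, adjusted p = 0.438), with overlap. Ssr1, Ssr2 and Ssr4 passed in no line.

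Signal peptidase held the largest rise in WT. Sec11c, 1 of its 2 catalytic subunits, stood in WT at 41.8, 38.9 and 41.2 TPM with thapsigargin, against 24.5, 23.6 and 26.5 TPM with DMSO (log2 change 0.69, SE 0.099, adjusted p = 4.59e-06). GCN2-deletion cells held 48.9, 42.9 and 57.8 TPM with thapsigargin, against 33.7, 35.9 and 34.6 TPM with DMSO (log2 change 0.50, SE 0.099, adjusted p = 0.000227). PERK-deletion cells held 88.7, 90.7 and 84.4 TPM with thapsigargin, against 60.4, 64.5 and 65.1 TPM with DMSO (log2 change 0.47, SE 0.099, adjusted p = 0.00293). No thapsigargin library overlapped a DMSO library in any line. Sec11a, the alternative catalytic subunit, stood in WT at 85.1, 83.1 and 90.7 TPM with thapsigargin, against 64.4, 65.5 and 71.96 TPM with DMSO (log2 change 0.35, SE 0.059, adjusted p = 3.09e-05). Its log2 changes were 0.34 in GCN2-deletion cells and 0.40 in PERK-deletion cells. Spcs2, an accessory subunit, reached 125, 113 and 115 TPM with thapsigargin, against 76.9, 81.6 and 76.5 TPM with DMSO (log2 change 0.58, SE 0.089, adjusted p = 4.81e-05) in PERK-deletion cells. In WT it reached 144, 142 and 154 TPM with thapsigargin, against 117, 108 and 116 TPM with DMSO (log2 change 0.37, SE 0.089, adjusted p = 0.0026). Both sets of libraries were apart. Spcs3 rose in both deletion lines (0.29 with adjusted p = 0.00259 in GCN2-deletion cells and 0.35 with adjusted p = 0.00246 in PERK-deletion cells). Spcs1, also an accessory subunit, stood in GCN2-deletion cells at 173, 158 and 179 TPM with thapsigargin, against 181, 205 and 194 TPM with DMSO (log2 change -0.18, SE 0.069, adjusted p = 0.0379). The treated libraries lay just below the DMSO ones. That call ended without GCN2-deletion thapsigargin replicate 1 or 2 or GCN2-deletion DMSO replicate 2 or 3 (highest adjusted p = 0.187).

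Within oligosaccharyltransferase, Rpn1, a subunit that holds substrates near the active site, stood in PERK-deletion cells at 317, 329 and 327 TPM with thapsigargin, against 235, 236 and 219 TPM with DMSO (log2 change 0.49, SE 0.059, adjusted p = 9.83e-07). GCN2-deletion cells held 307, 274 and 308 TPM with thapsigargin, against 216, 216 and 231 TPM with DMSO (log2 change 0.42, SE 0.059, adjusted p = 2.21e-06). WT held 294, 270.2 and 269.6 TPM with thapsigargin, against 231, 224 and 234 TPM with DMSO (log2 change 0.27, SE 0.059, adjusted p = 0.000812). No line showed overlap. Stt3b, the catalytic subunit that also acts after translation, rose by a log2 change of 0.43 in PERK-deletion cells (adjusted p = 3.45e-05) and 0.26 in GCN2-deletion cells (adjusted p = 0.00169), against 0.19 in WT (adjusted p = 0.0246). Stt3a, its cotranslational paralogue, passed in GCN2-deletion cells (0.37, adjusted p = 0.0262), a call that ended without GCN2-deletion thapsigargin replicate 1, 2 or 3 or GCN2-deletion DMSO replicate 1 or all 6 libraries of high microRNA share (highest adjusted p = 0.145). Dad1, a small subunit, fell in GCN2-deletion cells, at 108, 106 and 93.98 TPM with thapsigargin, against 140.1, 147 and 148 TPM with DMSO (log2 change -0.50, SE 0.084, adjusted p = 2.99e-05), without overlap. In PERK-deletion cells the log2 change of Dad1 was 0.15, and its log2 change in WT was -0.22, neither of which passed. Ddost rose in all 3 lines and Rpn2 passed in none.

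COPII genes gave both the largest rise in GCN2-deletion cells and the largest in PERK-deletion cells. Sec24d, a cargo-binding subunit of the inner coat and 1 of the 2 genes with TGACGTG near the start, stood in PERK-deletion cells at 89.2, 87.6 and 95.8 TPM with thapsigargin, against 54.7, 62.1 and 52.8 TPM with DMSO (log2 change 0.68, SE 0.088, adjusted p = 3.53e-06). GCN2-deletion cells held 85.8, 80.9 and 84.8 TPM with thapsigargin, against 70.9, 73.3 and 71.1 TPM with DMSO (log2 change 0.22, SE 0.088, adjusted p = 0.0486). That call ended without GCN2-deletion thapsigargin replicate 1, 2 or 3 or GCN2-deletion DMSO replicate 1, 2 or 3 or all 6 libraries of high microRNA share (highest adjusted p = 0.125). In WT it was 47.6, 38.2 and 38.97 TPM with thapsigargin, against 40.9, 35.1 and 39.7 TPM with DMSO (log2 change 0.10, SE 0.088, adjusted p = 0.453), and the groups overlapped. Sec23a, the GTPase-activating subunit of the inner coat and the other gene with the motif, stood in PERK-deletion cells at 43.4, 47.02 and 46.4 TPM with thapsigargin, against 32.1, 33.6 and 31.4 TPM with DMSO (log2 change 0.48, SE 0.11, adjusted p = 0.00789), apart from its controls. GCN2-deletion cells held 51.1, 48.3 and 52.4 TPM with thapsigargin, against 37.3, 44.6 and 43.5 TPM with DMSO (log2 change 0.27, SE 0.11, adjusted p = 0.0617), also apart although the test did not pass. WT values of Sec23a were 23.7, 17.3 and 17.1 TPM with thapsigargin, against 23.05, 18.1 and 22.5 TPM with DMSO (log2 change -0.13, SE 0.11, adjusted p = 0.454), with overlap. Its paralogue Sec23b passed in GCN2-deletion cells, at 94.7, 81.8 and 84.1 TPM with thapsigargin, against 63.5, 70.02 and 68.8 TPM with DMSO (log2 change 0.36, SE 0.062, adjusted p = 4.05e-05), where the groups did not overlap. TGACGTG was found in 0 of the 9 genes with a window that rose in all 3 lines. Sec23a and Sec24d were 2 of 10 with a window that rose in 1 or 2 lines. Among the 13 that rose in none it was found in 0, and a link between motif and response was not tested.

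The largest rise of any of the 40 genes with thapsigargin was that of Sec24a, another cargo-binding subunit. In GCN2-deletion cells it stood at 33.2, 36.5 and 34.9 TPM with thapsigargin, against 17.3, 18.1 and 18.2 TPM with DMSO (log2 change 0.93, SE 0.19, adjusted p = 0.000309), nearly 2-fold and without overlap. PERK-deletion cells held 29.4, 29.5 and 30.5 TPM with thapsigargin, against 21.1, 20.5 and 21.2 TPM with DMSO (log2 change 0.49, SE 0.19, adjusted p = 0.164), also without overlap though the test did not pass. WT libraries ranged widely under both treatments, at 20.2, 12.8 and 11.97 TPM with thapsigargin, against 19.3, 12.02 and 15.8 TPM with DMSO (log2 change -0.08, SE 0.19, adjusted p = 0.848). Sec24a lies 52 bases from Sar1b on chromosome 11 in opposite orientation (GENCODE M21), and Sar1b passed in no line (log2 changes 0.05, 0.07 and -0.01 in the GCN2-deletion, PERK-deletion and WT lines). Sar1a, the more abundant GTPase, rose in GCN2-deletion cells (0.26, adjusted p = 0.000504) and in PERK-deletion cells (0.23, adjusted p = 0.0128), the second call ending without PERK-deletion thapsigargin replicate 1 or PERK-deletion DMSO replicate 3 (highest adjusted p = 0.0967). Sec31a rose in all 3 lines, while Sec13, its partner in the cage, passed in none, as did Sec24b and Sec24c.

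Of the cargo receptors, Mcfd2, the soluble partner of Lman1 in carrying certain clotting factors, stood in WT at 110.4, 105 and 107 TPM with thapsigargin, against 74.8, 71.1 and 76.4 TPM with DMSO (log2 change 0.53, SE 0.057, adjusted p = 2.82e-08). PERK-deletion cells held 96.99, 95.8 and 94.8 TPM with thapsigargin, against 69.4, 75.8 and 61.5 TPM with DMSO (log2 change 0.48, SE 0.057, adjusted p = 9.53e-07). GCN2-deletion cells held 95.7, 92.03 and 97.5 TPM with thapsigargin, against 68.2, 77.8 and 70.8 TPM with DMSO (log2 change 0.39, SE 0.057, adjusted p = 3.42e-06). Treated and control libraries separated in all 3 lines. Lman1 itself passed in no line, with log2 changes of 0.10, 0.24 and -0.14 in the GCN2-deletion, PERK-deletion and WT lines. Surf4, a receptor for several soluble cargoes, stood in PERK-deletion cells at 221, 225 and 223 TPM with thapsigargin, against 148, 162 and 146 TPM with DMSO (log2 change 0.55, SE 0.068, adjusted p = 1.82e-06). Its changes were 0.36 (adjusted p = 0.000125) in GCN2-deletion cells and 0.25 (adjusted p = 0.00792) in WT.

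**Figure D2:**
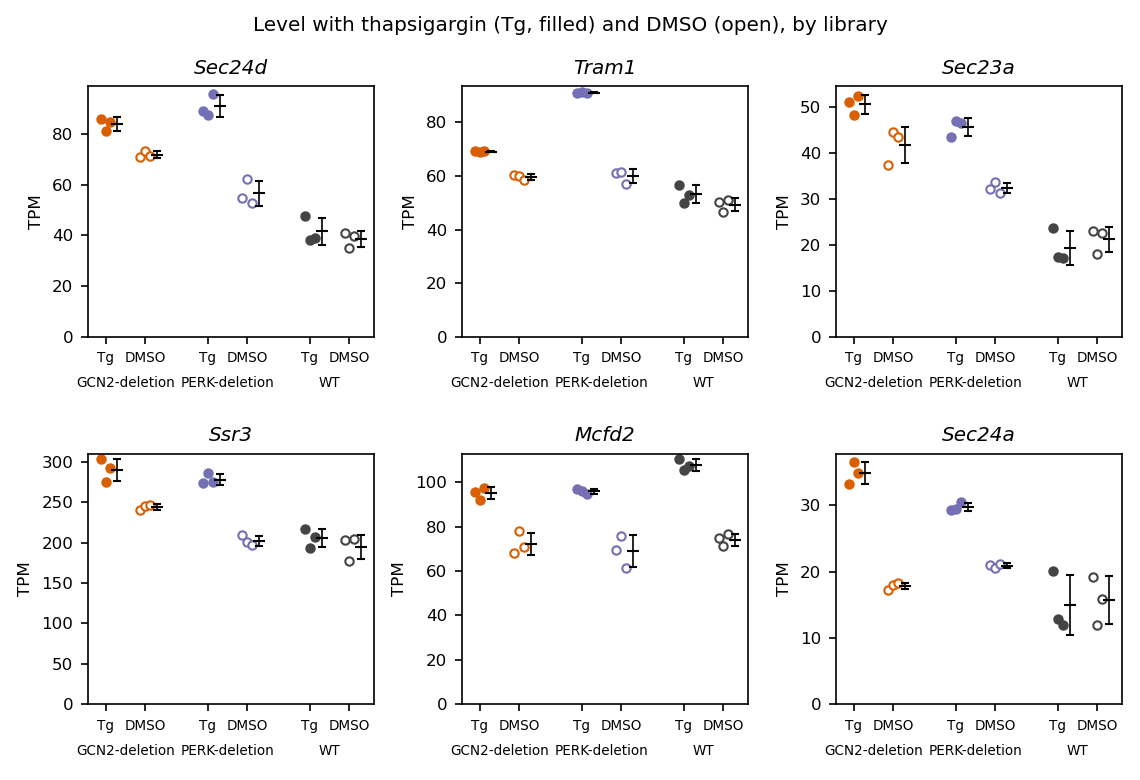
TPM of 6 genes in each library with thapsigargin (Tg, filled) and DMSO (open) in the GCN2-deletion, PERK-deletion and WT lines; bars give the mean ± SD of 3 libraries. Sec24d, Tram1, Sec23a and Ssr3 separate in both deletion lines (Tram1 and Sec23a without passing the test in GCN2-deletion cells) and overlap in WT, Mcfd2 separates in all 3 lines, and Sec24a stands at 34.9 ± 1.65 TPM with thapsigargin and 17.9 ± 0.504 TPM with DMSO in GCN2-deletion cells.

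Whether the thapsigargin response itself differed between lines was tested as the difference of 2 log2 changes. Between PERK-deletion cells and WT, 9 of the 40 responses were higher and 0 lower (1 lower by limma at an unadjusted p under 0.05), with calls for 13% of all genes, 5.59% higher and 7.38% lower. They were Sec23a (difference 0.62, SE 0.16, adjusted p = 0.00966), Sec24d (difference 0.57, SE 0.12, adjusted p = 0.00186), Sec24c (difference 0.51, SE 0.16, adjusted p = 0.0366), Tram1 (difference 0.49, SE 0.15, adjusted p = 0.0263), Ssr1 (difference 0.43, SE 0.13, adjusted p = 0.0299), Ssr3 (difference 0.38, SE 0.092, adjusted p = 0.00511), Dad1, Spcs3 and Surf4. Sec24c, also a cargo-binding subunit, stood in PERK-deletion cells at 85.03, 85.8 and 89.97 TPM with thapsigargin, against 70.4, 75.6 and 72.04 TPM with DMSO (log2 change 0.26, SE 0.12, adjusted p = 0.273). In WT it stood at 60.5, 53.3 and 54.99 TPM with thapsigargin, against 71.5, 61.2 and 69.96 TPM with DMSO (log2 change -0.26, SE 0.12, adjusted p = 0.109). The difference thus joined a higher value in 1 line with a lower value in the other, and neither passed alone. Ssr1 was similar, at 109, 113 and 110.3 TPM with thapsigargin, against 95.1, 94 and 85.2 TPM with DMSO (log2 change 0.28, SE 0.095, adjusted p = 0.0982) in PERK-deletion cells. WT held 76.1, 64.4 and 67.9 TPM with thapsigargin, against 81.2, 69.3 and 82.2 TPM with DMSO (log2 change -0.16, SE 0.095, adjusted p = 0.254). Libraries of Sec24c did not overlap in either line, and those of Ssr1 overlapped in WT. The differences for Sec23a, Sec24d and Ssr3 passed with each library left out in turn. The number of calls did not hold: it was 3 without PERK-deletion DMSO replicate 3 or WT DMSO replicate 1, 4 without PERK-deletion thapsigargin replicate 2, WT DMSO replicate 3 or WT thapsigargin replicate 2, 5 without PERK-deletion or WT thapsigargin replicate 3, and 14 without the 6 libraries of high microRNA share.

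Between GCN2-deletion cells and WT, 1 of the 40 thapsigargin responses was higher and 0 lower (3 lower by limma at an unadjusted p under 0.05), with calls for 14.3% of all genes, 12.3% higher and 1.95% lower. It was that of Sec24a (difference 1.002, SE 0.27, adjusted p = 0.0145), which missed the threshold without WT thapsigargin replicate 3 or WT DMSO replicate 1 (highest adjusted p = 0.0603). Median-of-ratios rescaling moved the median difference of all genes by -0.13, with 59.1% rather than 86.3% of all calls higher, and gave 1 higher and 3 lower of the 40. The count also rose to 19 with untreated cells as the control, to 11 without the 6 libraries of high microRNA share and to 8 without WT thapsigargin replicate 1. It was 0 without WT thapsigargin replicate 3 or WT DMSO replicate 1, 5 without WT DMSO replicate 2, 3 without GCN2-deletion thapsigargin replicate 2 and 2 without GCN2-deletion thapsigargin replicate 3.

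**Figure D3:**
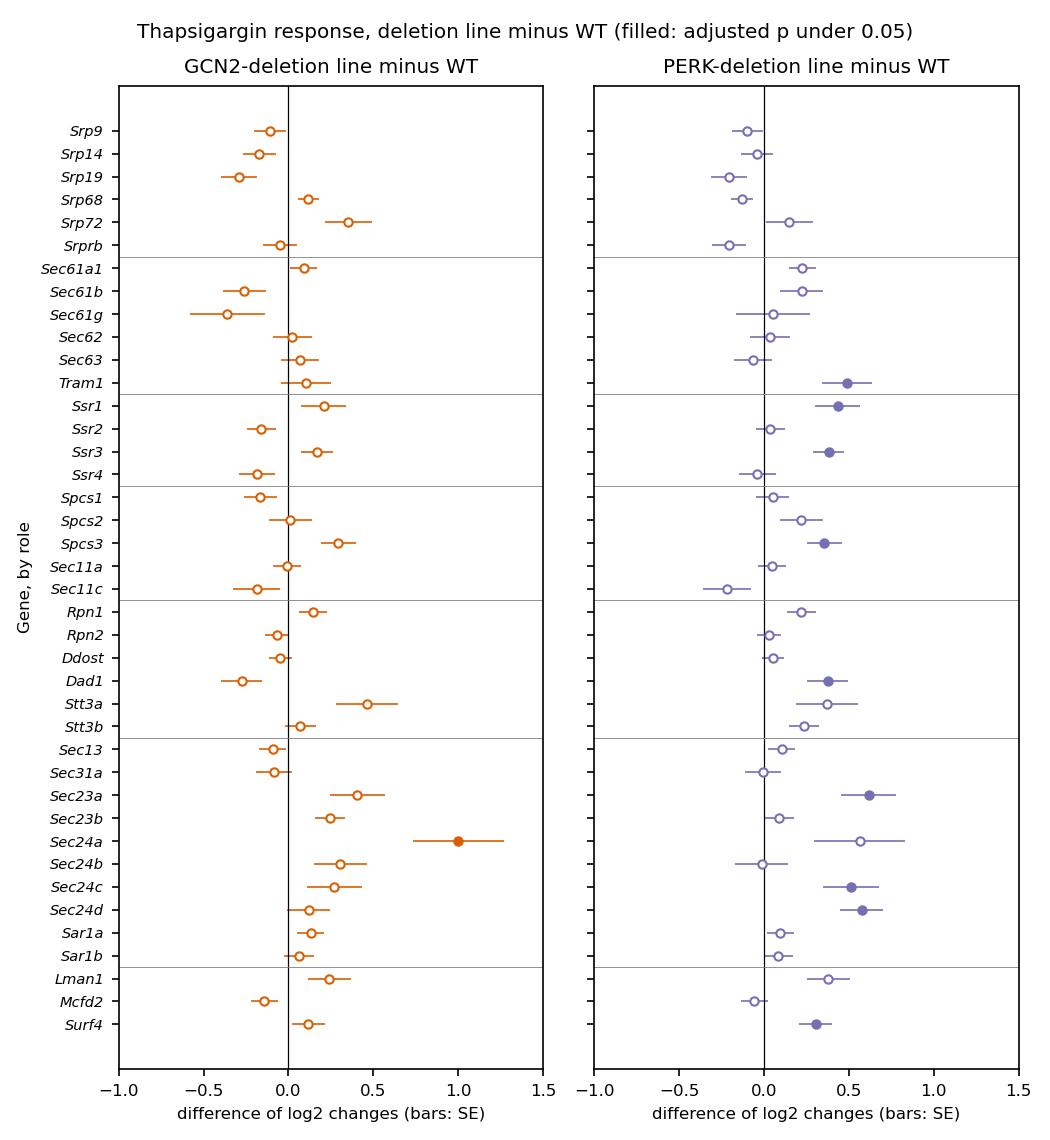
Difference between the log2 thapsigargin response of each deletion line and that of WT for the 40 genes (rows, grouped by role); points give the estimate, bars its SE, and filled points have adjusted p under 0.05. Filled points are Sec24a on the left (GCN2-deletion line) and 9 genes on the right (PERK-deletion line), with Sec23a at 0.62 farthest from 0 among those 9.

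Few of these genes were called with amino acid starvation. In WT more of them fell than rose, as among all genes. In GCN2-deletion cells 1 rose and 0 fell (6 higher and 2 lower by limma at an unadjusted p under 0.05), where the test called 23.9% of all genes, 11.7% higher and 12.2% lower. Of the 40, 3 rose and 1 fell in PERK-deletion cells, with 12.1% of all genes, 5.75% higher and 6.39% lower. WT had 2 that rose and 5 that fell, with 29.9% of all genes, 12.5% higher and 17.4% lower. Starved and untreated libraries did not overlap for 15 of the 40 genes in GCN2-deletion cells, near the 39.9% of all genes. The counts were 4 in PERK-deletion cells (23% of all genes) and 8 in WT (36.9%). The median log2 change of the 40 was 0.03 in GCN2-deletion cells (all genes -0.00), -0.03 in PERK-deletion cells (all genes -0.02) and -0.02 in WT (all genes -0.05). Summed levels were 5233 ± 63.1 TPM starved and 5096 ± 53.5 TPM untreated in GCN2-deletion cells. They were 4789.8 ± 97.2 TPM starved and 4807 ± 177 TPM untreated in PERK-deletion cells, and 4483 ± 19.9 TPM starved and 4568 ± 154 TPM untreated in WT.

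In WT the largest fall was that of Sec24c, at 54.6, 55.1 and 54.1 TPM when starved, against 118, 83.3 and 73.8 TPM untreated (log2 change -0.71, SE 0.12, adjusted p = 2.35e-05). Starved libraries were all lower, but the untreated ones ranged widely and replicate 1, the library with the highest mitochondrial share, was the highest. Dad1 stood in WT at 101, 102 and 99.2 TPM when starved, against 127, 129 and 148 TPM untreated (log2 change -0.41, SE 0.084, adjusted p = 0.000409). Spcs3 stood at 56.9, 54.4 and 53.5 TPM when starved, against 75, 69.3 and 61.5 TPM untreated (log2 change -0.31, SE 0.073, adjusted p = 0.00165). Neither gene overlapped between groups. Tram1 was 39.7, 40.3 and 37.7 TPM when starved, against 51.4, 53.1 and 45.01 TPM untreated (log2 change -0.33, SE 0.10, adjusted p = 0.0151). Sec11c was 22.6, 21.98 and 18.4 TPM when starved, against 24.9, 26.7 and 26.1 TPM untreated (log2 change -0.29, SE 0.099, adjusted p = 0.0252). Both were again apart. Mcfd2 rose, at 86.1, 85.3 and 83.1 TPM when starved, against 68.7, 80.1 and 71.6 TPM untreated (log2 change 0.21, SE 0.057, adjusted p = 0.00613). Srp19 also rose, at 86.7, 83.1 and 76.1 TPM when starved, against 66.96, 70.3 and 71.8 TPM untreated (log2 change 0.23, SE 0.075, adjusted p = 0.0199). For both, all starved libraries lay above all untreated ones. Several calls rested on single libraries. They ended for Tram1 without WT starvation replicate 3 or WT untreated replicate 1 or 2 (highest adjusted p = 0.0665) and for Sec11c without WT starvation replicate 3 or WT untreated replicate 2 or 3 (highest adjusted p = 0.177). They also ended for Srp19 without WT starvation replicate 1 or 2 or WT untreated replicate 1 (highest adjusted p = 0.104) and for Mcfd2 without WT untreated replicate 1 (adjusted p = 0.0542). The summed fibroblast markers were also lower in starved WT cells, between 3058 and 3267 TPM against 4144 to 4311 TPM untreated, and their part was not tested. With DMSO as the control 4 of the 40 genes passed, and 2 with the compared groups fitted alone.

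Sec63 was the gene that rose in both deletion lines. In GCN2-deletion cells it stood at 79.6, 83.2 and 77.2 TPM when starved, against 63.4, 65.98 and 60.3 TPM untreated (log2 change 0.34, SE 0.079, adjusted p = 0.00246). PERK-deletion cells held 71.1, 66.4 and 63.1 TPM when starved, against 56.9, 57.6 and 49.3 TPM untreated (log2 change 0.29, SE 0.079, adjusted p = 0.0155). Every starved library exceeded every untreated one. Sec11c in PERK-deletion cells was 104, 76.6 and 72.9 TPM when starved, against 61.2, 65.6 and 66.2 TPM untreated (log2 change 0.37, SE 0.099, adjusted p = 0.0129). Sec11a was 50.6, 44.4 and 48.1 TPM when starved, against 38.7, 43.5 and 40.7 TPM untreated (log2 change 0.21, SE 0.059, adjusted p = 0.0155). Neither overlapped. Sar1b stood there at 47.2, 53.3 and 56.4 TPM when starved, against 60.7, 62.8 and 61.4 TPM untreated (log2 change -0.24, SE 0.062, adjusted p = 0.00996), with the starved libraries all lower. PERK-deletion starvation replicate 1 stood apart in its group, with 4.33% of mitochondrial transcripts against 7.80% and 7.97% in the other 2 libraries, and 1.90% of microRNA symbols against 0.657% and 0.718%. It was the highest or lowest starved library for each of the 4, and without it 0 of the 40 genes passed in that line (limma), as with the compared groups fitted alone. Without PERK-deletion untreated replicate 1, with DMSO as the control, or without the 6 libraries of high microRNA share 2 passed. In this line the summed neural markers lay between 13.4 and 16.1 TPM starved, against 18.3 to 21.7 TPM untreated, and the fibroblast markers between 2556 and 2698 TPM starved, against 2363 to 2437 TPM untreated. In GCN2-deletion cells the fibroblast markers lay between 4676 and 4913 TPM starved, against 5484 to 5569 TPM untreated. The part of these markers was not tested. Single calls ended for Sec63 without PERK-deletion starvation replicate 1 or PERK-deletion untreated replicate 3 or all 6 libraries of high microRNA share (highest adjusted p = 0.151) and for Sec11a without PERK-deletion starvation replicate 1 or PERK-deletion untreated replicate 1 or all 6 libraries of high microRNA share (highest adjusted p = 0.131). They ended too for Sec11c without PERK-deletion starvation replicate 1 or PERK-deletion untreated replicate 1 or all 6 libraries of high microRNA share (highest adjusted p = 0.149) and for Sar1b without PERK-deletion starvation replicate 1 (adjusted p = 0.0993). In GCN2-deletion cells the count was 6 without untreated replicate 3, 2 without starvation replicate 3, 8 with median-of-ratios rescaling (6 higher and 2 lower) and 10 without the 6 libraries of high microRNA share. It was 5 with the compared groups fitted alone and 3 with a filter at 5 TPM.

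The starvation response differed from that of WT for 2 genes in each deletion line, 1 higher and 1 lower in either case. The test called 7.85% of all genes, 3.69% higher and 4.17% lower, between GCN2-deletion cells and WT. Between PERK-deletion cells and WT it called 10.9% of all genes, 5.58% higher and 5.34% lower. In GCN2-deletion cells Spcs3 stood at 99.6, 112 and 107 TPM when starved, against 92.9, 88.8 and 99.6 TPM untreated (log2 change 0.18, SE 0.073, adjusted p = 0.0789). This did not pass alone but differed from the fall in WT (difference 0.49, SE 0.10, adjusted p = 0.00213). Srp19, at 87, 85.1 and 77.99 TPM when starved, against 99.4, 89.6 and 82.95 TPM untreated (log2 change -0.12, SE 0.075, adjusted p = 0.291), differed from its rise in WT (difference -0.35, SE 0.11, adjusted p = 0.0402). That call ended without GCN2-deletion starvation replicate 2 or 3, GCN2-deletion untreated replicate 1 or 2, WT starvation replicate 1 or 2 or WT untreated replicate 1 or 2 (highest adjusted p = 0.145). In PERK-deletion cells the rise of Sec11c differed from its fall in WT (difference 0.66, SE 0.14, adjusted p = 0.00162), and Sar1b, which stood in WT at 44.5, 44.2 and 45.7 TPM when starved, against 40.3, 42.9 and 44.4 TPM untreated (log2 change 0.07, SE 0.062, adjusted p = 0.429), also differed (difference -0.31, SE 0.087, adjusted p = 0.0184). This second call ended without PERK-deletion starvation replicate 1 or WT untreated replicate 1 or all 6 libraries of high microRNA share (highest adjusted p = 0.0692). Without WT untreated replicate 3 the counts were 5 in GCN2-deletion cells and 4 in PERK-deletion cells, and without PERK-deletion starvation replicate 1 the second was 4.

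Within WT the starvation response was set against the thapsigargin response, each with its own control. For 13 of the 40 genes it was lower and for 0 higher (also 0 higher by limma at an unadjusted p under 0.05), with calls for 11.9% of all genes, 5.77% higher and 6.17% lower. Signal peptidase gave the widest gap: Sec11c fell when starved and rose with thapsigargin (difference -0.98, SE 0.14, adjusted p = 1.11e-05). Spcs2, at 105, 103 and 110.2 TPM starved and 111, 118 and 109.9 TPM untreated, also differed (difference -0.46, SE 0.13, adjusted p = 0.0154). So did Surf4, at 145, 147 and 145 TPM starved and 137, 175 and 157 TPM untreated (difference -0.34, SE 0.097, adjusted p = 0.0199). Sec61a1 did as well, at 158, 159.6 and 166 TPM starved and 176, 169.9 and 164 TPM untreated (difference -0.33, SE 0.081, adjusted p = 0.00618), and so did Mcfd2, which rose under both but less when starved (difference -0.33, SE 0.081, adjusted p = 0.00648). Spcs2, Surf4 and Sec61a1 overlapped between starved and untreated WT libraries. Srp68, Srprb, Tram1, Sec11a, Rpn1, Ddost, Sec31a and Sar1a made up the rest. The count was 7 without WT untreated replicate 2 or WT thapsigargin replicate 3, 8 without WT starvation replicate 1 or WT DMSO replicate 3, 7 with the compared groups fitted alone and 8 without the filter. The call for Surf4 was lost without WT untreated replicate 2 (adjusted p = 0.0685). That for Srp68 held in all 13 limma runs that left out 1 library or the 6 of high microRNA share. Those for Srprb and Tram1 each ended in 11 of these runs (highest adjusted p = 0.154 and 0.101). Further calls ended in 9 runs for Ddost (highest adjusted p = 0.0885), 8 for Sar1a (0.0878), 5 for Sec31a (0.121), 4 for Sec11a (0.0756) and 2 for Rpn1 (0.0683).

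DMSO alone, set against untreated cells, changed 0 of the 40 genes in each line, where limma called 0.149%, 0.242% and 0.118% of all genes in the GCN2-deletion, PERK-deletion and WT lines. At an unadjusted p under 0.05 it gave 0 of the 40 in GCN2-deletion cells, 3 in PERK-deletion cells and 3 in WT, and 3 passed in WT after adjustment when WT untreated replicate 3 was left out.

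Other genes of the same route were read from 3 lists, of translocation and membrane insertion (20 of 24 symbols in the table, all tested), of N-glycan assembly and transfer (38 genes), and of ER exit sites, p24 cargo receptors and early Golgi traffic (35 genes). Each count is read against the share of all genes: with thapsigargin 25.4% of all genes rose and 11.3% fell in GCN2-deletion cells, 2.5% and 2.8% in PERK-deletion cells, and 11.4% and 14.8% in WT. Of the 38 N-glycan genes, 12 rose and 4 fell in GCN2-deletion cells, close to the shares of all genes. In PERK-deletion cells 8 rose and 1 fell, and in WT 9 rose and 1 fell. Their median log2 change was 0.09, 0.05 and 0.01 in the GCN2-deletion, PERK-deletion and WT lines, against 0.08, -0.04 and -0.04 for all genes. Alg12 and Alg2, mannosyltransferases of the lipid-linked glycan, and Gmppb, which makes GDP-mannose, rose in all 3 lines. Alg12 averaged 26.7 ± 5.003 TPM with thapsigargin and 9.65 ± 0.736 TPM with DMSO in GCN2-deletion cells (log2 change 1.37, SE 0.099, adjusted p = 1.34e-11), with log2 changes of 0.91 in PERK-deletion cells and 0.98 in WT. Gmppb averaged 29.9 ± 0.998 TPM with thapsigargin and 14.03 ± 0.687 TPM with DMSO in PERK-deletion cells (log2 change 1.04, SE 0.091, adjusted p = 2.95e-09), with 0.67 in GCN2-deletion cells and 0.92 in WT. Of the 35 exit and Golgi genes 15 rose and 1 fell in GCN2-deletion cells, 14 rose and 0 fell in PERK-deletion cells, and 8 rose and 2 fell in WT, with medians of 0.17, 0.21 and 0.08. Tfg, an organiser of ER exit sites, rose by 0.49, 0.60 and 0.48 on the log2 scale in the GCN2-deletion, PERK-deletion and WT lines, and Stx5a, a Golgi SNARE, by 0.57, 0.59 and 0.52. Of the 20 translocation genes 5 rose and 3 fell in GCN2-deletion cells, 1 rose and 0 fell in PERK-deletion cells, and 5 rose and 1 fell in WT, with medians of 0.03, 0.00498 and 0.05. The lists were not tested against each other or against all genes. Tram2, a relative of Tram1, fell in GCN2-deletion cells (-0.56, adjusted p = 0.000335) and in WT (-0.70, adjusted p = 3.06e-05), and its response in PERK-deletion cells differed from that in WT (difference 0.69, SE 0.16, adjusted p = 0.00441). So did that of Magt1, a subunit of Stt3b complexes (difference 0.73, SE 0.20, adjusted p = 0.0158), and that of Kdelr3, a receptor that returns ER proteins from the Golgi (difference 0.36, SE 0.078, adjusted p = 0.00199). Between PERK-deletion cells and WT, 1 of the 38 N-glycan responses was higher and 6 lower. The counts were 7 higher and 1 lower for the 35 exit and Golgi genes. They were 1 higher and 0 lower for the 20 translocation genes, where 5.59% of all genes were higher and 7.38% lower.

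Starvation of WT cells lowered 12 and raised 6 of the 38 N-glycan genes, lowered 9 and raised 2 of the 35 exit and Golgi genes, and lowered 4 and raised 3 of the 20 translocation genes. Of all genes 17.4% fell and 12.5% rose in that comparison, near the shares of the translocation list. The medians were -0.12 for the N-glycan, -0.10 for the exit and Golgi and 0.02 for the translocation genes, against -0.05 for all genes. The largest fall was that of Emc9, a subunit of the ER membrane insertase, at 5.17 ± 0.532 TPM starved and 11.6 ± 3.29 TPM untreated (log2 change -0.995, SE 0.15, adjusted p = 5.76e-06). Gmppb stood at 8.11 ± 0.994 TPM starved and 13.1 ± 1.16 TPM untreated (log2 change -0.63, SE 0.091, adjusted p = 3.56e-06), and its starvation response was lower than its thapsigargin response in WT (difference -1.56, SE 0.13, adjusted p = 6.32e-10). Gnpnat1, which acts on the way to UDP-N-acetylglucosamine, went up, at 65.5 ± 2.76 TPM starved and 31.1 ± 2.18 TPM untreated (log2 change 1.05, SE 0.11, adjusted p = 1.7e-08), as did Mia2, an exit-site protein for bulky cargo (log2 change 0.75, SE 0.10, adjusted p = 1.89e-06). For both, the starvation response in GCN2-deletion cells was lower than in WT (Gnpnat1 difference -1.003, SE 0.16, adjusted p = 4.23e-05, and Mia2 difference -0.90, SE 0.15, adjusted p = 7.99e-05). The same held in PERK-deletion cells (Gnpnat1 difference -0.77, SE 0.16, adjusted p = 0.001, and Mia2 difference -0.69, SE 0.15, adjusted p = 0.0016), where their thapsigargin responses were also lower than in WT (Gnpnat1 -0.72, Mia2 -0.52). In the starved GCN2-deletion line 8 N-glycan genes fell and 2 rose, where 12.2% of all genes fell and 11.7% rose. In the starved PERK-deletion line 3 fell and 1 rose, near the 6.39% and 5.75% of all genes. These lists were chosen with earlier results of these data known.

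Untreated, the 3 lines already differed in these genes. In GCN2-deletion cells 18 of the 40 were higher than in WT and 3 lower, and in PERK-deletion cells 14 were higher and 7 lower. The test called 44.4% of all genes, 21.2% higher and 23.2% lower, in GCN2-deletion cells. In PERK-deletion cells it called 49.8% of all genes, 31.2% higher and 18.6% lower. In both lines the share of the 40 called in either direction, 52.5%, was near that of all genes. By direction the calls in GCN2-deletion cells leaned higher: 18 of 40 higher, where 21.2% of all genes were, and 3 lower, where 23.2% were. This lean was not tested. Median-of-ratios rescaling gave 9 higher and 13 lower in PERK-deletion cells, turning the balance round, with 53% rather than 62.7% of all calls higher. In GCN2-deletion cells it gave 18 higher and 3 lower. Both comparisons share the untreated WT libraries. The summed fibroblast and neural markers also differed between the untreated lines, as given above, and their part was not tested. The other genes called higher in GCN2-deletion cells, beside those described next, were Srp14, Srp19, Sec61a1, Sec61b, Tram1, Ssr3, Rpn2, Ddost, Stt3b, Sec13 and Surf4, with log2 changes between 0.13 and 0.37. In PERK-deletion cells they were Srp9, Srp14, Rpn2, Ddost, Stt3b, Sec13 and Sec23b, between 0.15 and 0.29. Srp14, called in both lines, lies 615 bases from Eif2ak4 on chromosome 2 in opposite orientation (GENCODE M21), and the part of this was not tested. Some of these higher calls rested on single libraries. In GCN2-deletion cells they ended for Tram1 without GCN2-deletion untreated replicate 1 or 3 or WT untreated replicate 3 (highest adjusted p = 0.113), for Ddost without GCN2-deletion untreated replicate 2 or WT untreated replicate 1 (highest adjusted p = 0.242) and for Surf4 without GCN2-deletion untreated replicate 3 or WT untreated replicate 1 (highest adjusted p = 0.161). The lowest log2 change was then 0.0692 for Ddost and 0.12 for Surf4. PERK-deletion cells lost the call for Ddost without PERK-deletion untreated replicate 1 or 2 or WT untreated replicate 1 (highest adjusted p = 0.139) and for Stt3b without PERK-deletion untreated replicate 1 or 2 or WT untreated replicate 3 (highest adjusted p = 0.249).

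Sec23a stood at 38.5, 34.6 and 47.4 TPM in GCN2-deletion cells, against 21.5, 23.4 and 17.6 TPM in WT (log2 change 0.91, SE 0.11, adjusted p = 1.41e-07). In PERK-deletion cells it was 32.3, 31.1 and 28.9 TPM (log2 change 0.55, SE 0.11, adjusted p = 0.000204). All libraries of either deletion line lay above those of WT. Sec24d was higher too, at 64.8, 59.9 and 71.2 TPM in GCN2-deletion cells, against 40.5, 39.7 and 34.9 TPM in WT (log2 change 0.75, SE 0.088, adjusted p = 4.61e-08), and at 57.6, 51.6 and 47.2 TPM in PERK-deletion cells (log2 change 0.43, SE 0.088, adjusted p = 0.000164). Lman1, the lectin receptor, stood at 104, 94.6 and 115 TPM in GCN2-deletion cells (log2 change 0.45, SE 0.090, adjusted p = 0.00018) and 115, 111 and 88.6 TPM in PERK-deletion cells (log2 change 0.45, SE 0.090, adjusted p = 0.000161), against 79.1, 84.2 and 66.6 TPM in WT. The same direction held in both lines for Spcs3, at 92.9, 88.8 and 99.6 TPM in GCN2-deletion cells (log2 change 0.45, SE 0.073, adjusted p = 1.16e-05) and 99.2, 99.7 and 82.95 TPM in PERK-deletion cells (log2 change 0.45, SE 0.073, adjusted p = 9.79e-06), against 75, 69.3 and 61.5 TPM in WT. Neither Lman1 nor Spcs3 overlapped with WT.

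The catalytic subunits of signal peptidase moved apart in PERK-deletion cells. Sec11c stood at 61.2, 65.6 and 66.2 TPM in PERK-deletion cells, against 24.9, 26.7 and 26.1 TPM in WT (log2 change 1.28, SE 0.099, adjusted p = 1.49e-11). Sec11a stood at 38.7, 43.5 and 40.7 TPM in PERK-deletion cells, against 63.9, 68.6 and 69.9 TPM in WT (log2 change -0.71, SE 0.059, adjusted p = 6.15e-11). Thus 1 catalytic subunit was more than 2-fold higher and the other lower, with wide gaps between the lines. In GCN2-deletion cells Sec11c held 37.9, 39.7 and 33.97 TPM (log2 change 0.50, SE 0.099, adjusted p = 0.000133). As a share of the summed Sec11a and Sec11c TPM, Sec11c made up 33.3 ± 0.839% in GCN2-deletion cells and 61.1 ± 0.919% in PERK-deletion cells, against 27.7 ± 0.447% in WT. The sum of both was 105 ± 4.78 TPM in PERK-deletion cells and 93.3 ± 3.97 TPM in WT. Exons of Sec11a overlap those of Nmb on the same strand, so its TPM may hold shared reads. Spcs2 was 68.8, 88.5 and 78.1 TPM in PERK-deletion cells, against 111, 118 and 109.9 TPM in WT (log2 change -0.53, SE 0.089, adjusted p = 1.42e-05), without overlap. Spcs1 was 177, 180.4 and 205 TPM in PERK-deletion cells, against 198, 231 and 239 TPM in WT (log2 change -0.24, SE 0.069, adjusted p = 0.00432), with overlap.

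Other members were set apart in 1 line or moved less. Sar1b stood at 60.7, 62.8 and 61.4 TPM in PERK-deletion cells, against 40.3, 42.9 and 44.4 TPM in WT (log2 change 0.53, SE 0.062, adjusted p = 4.37e-08), well apart. Sec63 was 56.9, 57.6 and 49.3 TPM in PERK-deletion cells, against 76.98, 76.3 and 61.4 TPM in WT (log2 change -0.38, SE 0.079, adjusted p = 0.000227). Srp19 was 95.3, 90.5 and 97.5 TPM in PERK-deletion cells, against 66.96, 70.3 and 71.8 TPM in WT (log2 change 0.43, SE 0.075, adjusted p = 2.03e-05). Neither overlapped. Ssr1 stood at 99.8, 93.6 and 107 TPM in GCN2-deletion cells, against 65.2, 86.7 and 70.9 TPM in WT (log2 change 0.43, SE 0.095, adjusted p = 0.000419), with all libraries above WT. Srp68 was 72.04, 76.9 and 73.1 TPM in GCN2-deletion cells, against 85.6, 85.5 and 82.3 TPM in WT (log2 change -0.19, SE 0.045, adjusted p = 0.00108), with all libraries below WT. Sec31a, higher in GCN2-deletion cells (0.31), was lower in PERK-deletion cells (-0.21, ending without PERK-deletion untreated replicate 3 or WT untreated replicate 1 or all 6 libraries of high microRNA share (highest adjusted p = 0.28)). Other lower calls also rested on single libraries. Among GCN2-deletion cells they ended for Srp72 without WT untreated replicate 1 or all 6 libraries of high microRNA share (highest adjusted p = 0.0656) and for Sec24c without GCN2-deletion untreated replicate 1, 2 or 3 or WT untreated replicate 1 or all 6 libraries of high microRNA share (highest adjusted p = 0.436). Among PERK-deletion cells they ended for Srp72 without PERK-deletion untreated replicate 2 or 3 or WT untreated replicate 1 or 2 or all 6 libraries of high microRNA share (highest adjusted p = 0.679) and for Ssr4 without PERK-deletion untreated replicate 2 or WT untreated replicate 3 (highest adjusted p = 0.0917). A fit of the 2 untreated groups on their own passed 9 rather than 21 of the 40 genes in PERK-deletion cells.

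**Figure D4:**
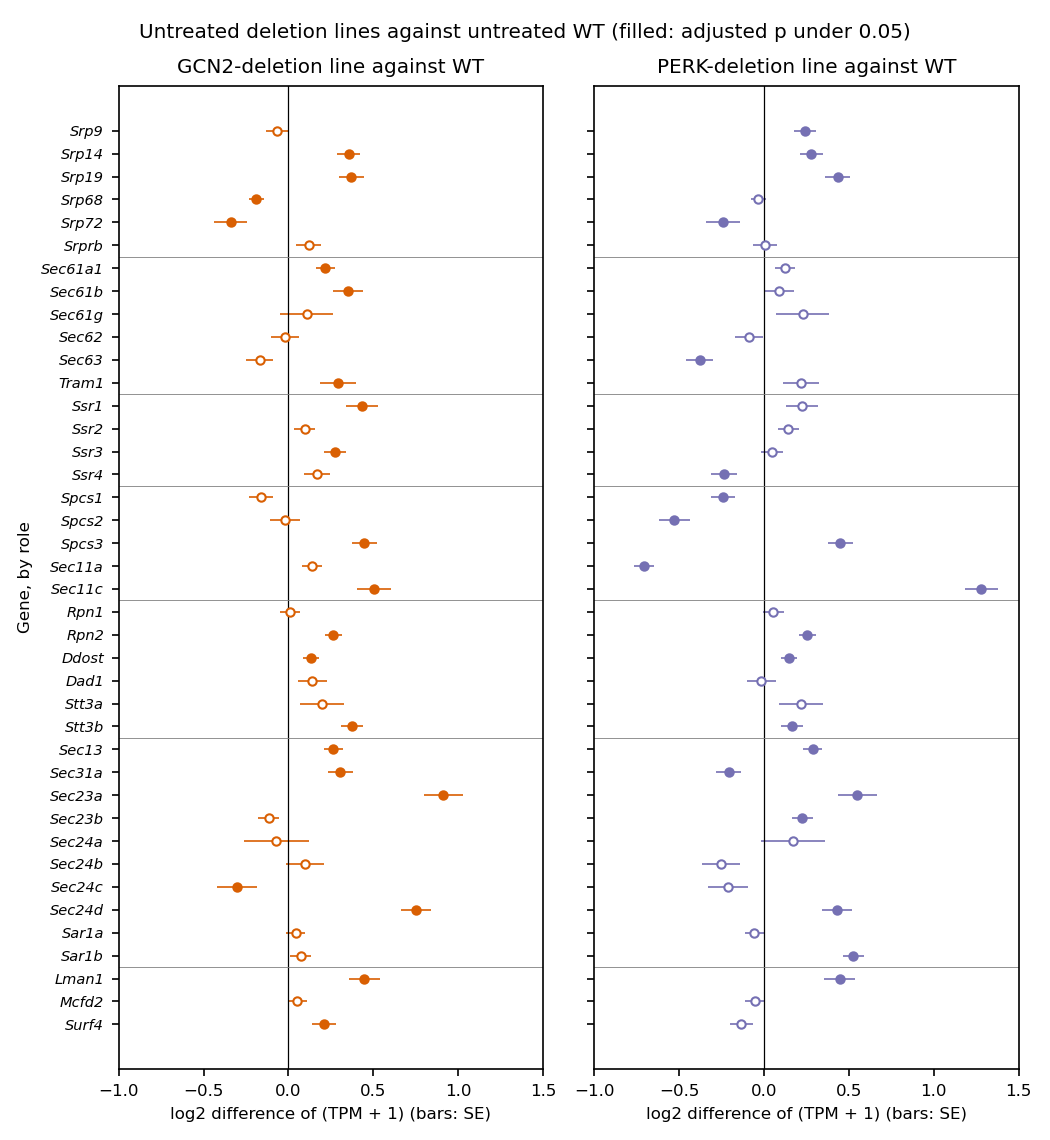
Log2 difference of (TPM + 1) between each untreated deletion line and untreated WT for the 40 genes (rows, grouped by role); points give the estimate, bars its SE, and filled points have adjusted p under 0.05. Sec23a (0.91) and Sec24d (0.75) lie farthest right in GCN2-deletion cells, and Sec11c (1.28) and Sec11a (-0.71) lie at the 2 ends in PERK-deletion cells.

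The shares of the paralogues were computed in all groups, and those of some groups are given here. Sec11c made up 62.3 ± 0.222% of the Sec11 sum with thapsigargin and 61.3 ± 1.86% with DMSO in PERK-deletion cells. In GCN2-deletion cells the share was 35.1 ± 2.74% with thapsigargin and 32.6 ± 0.880% with DMSO, and in WT 32 ± 0.852% with thapsigargin and 26.98 ± 0.549% with DMSO. Starved WT cells held 22.8 ± 1.45%, against 27.7 ± 0.447% untreated, so in WT the share was higher with thapsigargin and lower with starvation. For Sec24d the share of the 4 Sec24 genes was 32.6 ± 0.897% with thapsigargin and 25.2 ± 1.66% with DMSO in PERK-deletion cells. It was 27.1 ± 0.151% with thapsigargin and 27.6 ± 2.59% with DMSO in GCN2-deletion cells, and 22.02 ± 1.02% with thapsigargin and 19.3 ± 0.409% with DMSO in WT. Sec24b, the remaining cargo-binding subunit, averaged 70.8 ± 3.60 TPM with thapsigargin and 73.9 ± 2.29 TPM with DMSO in PERK-deletion cells, where its share was 25.4 ± 1.15% with thapsigargin and 33.02 ± 1.69% with DMSO. In WT its share was 46.4 ± 1.64% starved and 36.5 ± 0.577% untreated. The share of Sec24c in WT was 27.96 ± 1.07% starved and 39.3 ± 2.31% untreated. Sec23a made up 38.6 ± 4.26% of the Sec23 sum in the untreated GCN2-deletion line and 27.6 ± 0.638% in PERK-deletion cells, against 23.2 ± 2.15% in WT. Sar1b made up 21.9 ± 1.53% of the Sar1 sum in the untreated GCN2-deletion line and 29.3 ± 2.10% in PERK-deletion cells, against 21.5 ± 1.55% in WT. Stt3a held 75.6 ± 1.91% of the Stt3 sum in the untreated GCN2-deletion line and 78.5 ± 0.707% in PERK-deletion cells, against 77.8 ± 2.22% in WT. No test was made of these shares.

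**Figure D5:**
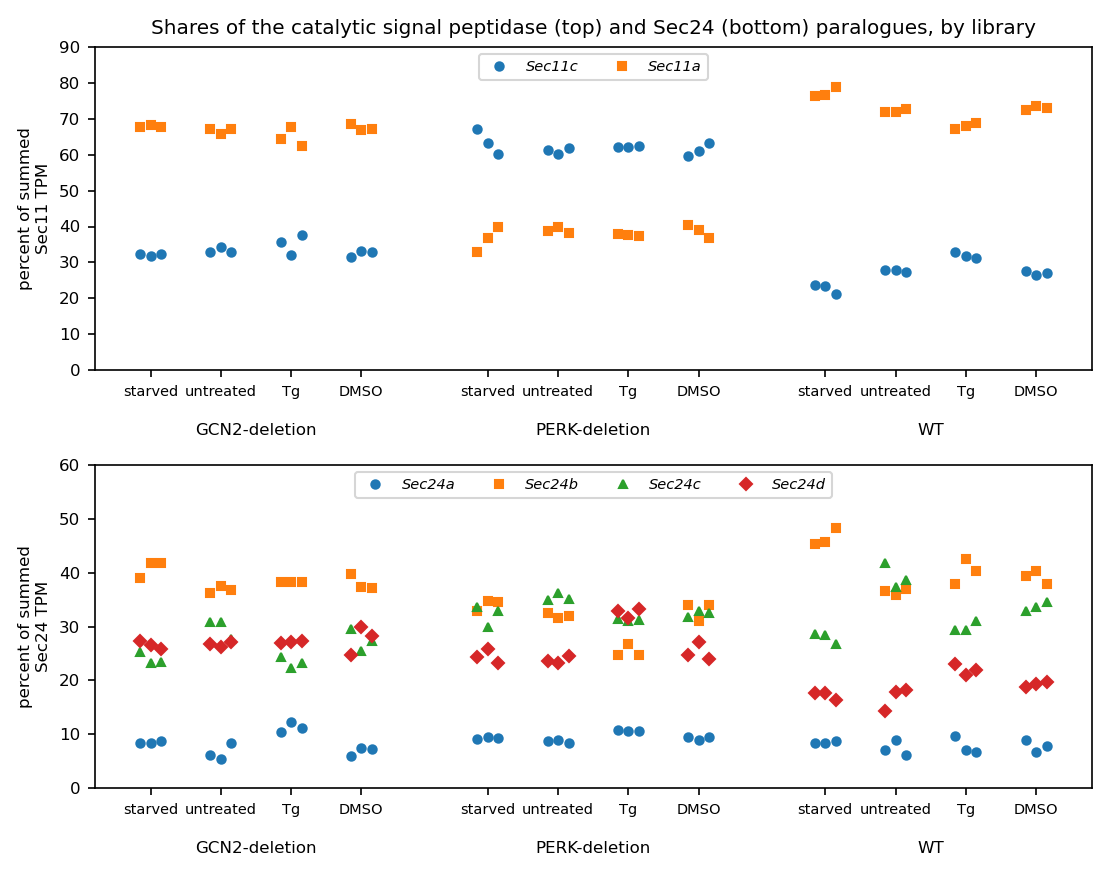
Percent of the summed TPM of Sec11a and Sec11c (top) and of the 4 Sec24 genes (bottom) held by each paralogue, 1 point per library, in starved, untreated, thapsigargin-treated (Tg) and DMSO-treated cells of each line. Sec11c exceeds Sec11a in PERK-deletion cells under all 4 treatments and lies below it in the other 2 lines, and Sec24d reaches 32.6 ± 0.897% with thapsigargin in PERK-deletion cells.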

How the data were processed

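RNA sequencing of 36 libraries, 12 groups of 3 technical replicates, was analysed from a deposited table of TPM (transcripts scaled to a fixed total per library and by length) by gene symbol. The library preparation was a stranded TruSeq total RNA protocol, per the labels' protocols. FastQC, kallisto and mm10 are named in the submitters' processing notes, without versions, and the strand setting, the annotation and the step from transcripts to genes are not given in the sources used here. The deposited TPM values sum to 1000000 per library within rounding and keep no depth, so sequencing depth is unknown and no counting interval is given. All per-sample columns were used.

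The test was limma 3.58.1 (R 4.3.3) on log2(TPM + 1), with 12 group means, a variance trend over expression and 24 residual degrees of freedom, on the 16083 genes that reached 1 TPM in 3 or more libraries. P-values were adjusted per comparison by Benjamini-Hochberg over those genes, for 16 comparisons, and a gene was called at adjusted p under 0.05. All tests were two-sided. Fold changes on the log2(TPM + 1) scale understate changes of low genes. The 40 genes and the comparison lists were chosen with earlier results of these data known. Values in every library are given for up to 6 called rises and 6 called falls per comparison, largest first, and for other genes where a difference between lines turns on them. The scripts were tested on simulated data.

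Alternatives were a pseudocount of 0.1, no filter, a filter at 5 TPM, no variance trend, median-of-ratios rescaling, the compared groups fitted alone, the other control (DMSO for starvation and for the untreated lines, untreated cells for thapsigargin), a replicate block and each library left out in turn. One more, without the 6 libraries of high microRNA share, was chosen after seeing the data. Promoter windows came from RefSeq (GRCm38.p6) and gene positions from GENCODE M21. Figures were drawn with matplotlib 3.10.9.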

Additional observations from a re-analysis of the deposited data

Results flagged for a closer look

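The results here are those in which the response of a deletion line differed from that of WT by the test of the difference itself (limma, Benjamini-Hochberg adjusted). Each value is the deletion line's log2 response minus that of WT, and all of these share the WT libraries. With thapsigargin in the PERK-deletion line the responses were higher for Sec23a (0.62), Sec24d (0.57), Sec24c (0.51), Tram1 (0.49), Ssr1 (0.43), Ssr3 (0.38), Dad1 (0.37), Spcs3 (0.35) and Surf4 (0.30). Calls that missed the threshold with 1 library or set left out reached an adjusted p of 0.0948 for Sec24c, 0.0748 for Tram1, 0.0916 for Ssr1, 0.112 for Dad1, 0.0634 for Spcs3 and 0.0911 for Surf4.

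With thapsigargin in the GCN2-deletion line the response of Sec24a was higher (1.00). With starvation in the GCN2-deletion line that of Spcs3 was higher (0.49) and that of Srp19 lower (-0.35). With starvation in the PERK-deletion line that of Sec11c was higher (0.66) and that of Sar1b lower (-0.31). Leaving out 1 library or set ended the calls for Sec24a, Srp19 and Sar1b, with a highest adjusted p (limma) of 0.0603, 0.145 and 0.0692. The calls for Spcs3 and Sec11c held in each such run.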

How the results depend on the processing

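Depth is unknown, each genotype is 1 line, and the replicates are technical, which limits every comparison. No call among the 640 gene results changed sign when the libraries were rescaled, the filter, pseudocount or variance trend changed, the compared groups were fitted alone or a library was left out. With DMSO groups in place of untreated ones, 2 called values changed sign: Sec24c in the GCN2-deletion line against WT (log2 difference 0.0802, adjusted p = 0.632) and Srp72 in the PERK-deletion line against WT (0.0133, adjusted p = 0.932). The number of the 40 genes called moved by more than 1.5 times as follows. For starvation in WT (7 called) it was 4 with the other control and 2 with the compared groups alone. For starvation in the GCN2-deletion line (1 called) it was 8 after rescaling, 3 with a filter at 5 TPM, 5 with the compared groups alone, 10 without the 6 libraries of high microRNA share, and 1 to 6 with single libraries left out. For starvation in the PERK-deletion line (4 called) it was 2 with the other control, 0 with the compared groups alone, 2 without the 6 libraries, and 0 to 4 with single libraries left out. For thapsigargin in the PERK-deletion line (17 called) it was 26 with the other control and 27 after rescaling. For DMSO in WT (0 called) it was 0 to 3 with single libraries left out.

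For the starvation response of the GCN2-deletion line minus WT (2 called) it was 1 with the other control, no filter, no variance trend or the compared groups alone, 5 without the 6 libraries, and 1 to 5 with single libraries left out. For that of the PERK-deletion line minus WT (2 called) it was 4 after rescaling, 0 with the compared groups alone, 4 without the 6 libraries, and 1 to 4 with single libraries left out. For the thapsigargin response of the GCN2-deletion line minus WT (1 called) it was 19 with the other control, 4 after rescaling, 2 with a filter at 5 TPM, 11 without the 6 libraries, and 0 to 8 with single libraries left out. For that of the PERK-deletion line minus WT (9 called) it was 15 with the other control, 4 with no filter, 14 without the 6 libraries, and 3 to 12 with single libraries left out. For the starvation minus the thapsigargin response in WT (13 called) it was 8 with no filter, 7 with the compared groups alone, and 7 to 14 with single libraries left out. For the untreated PERK-deletion line against WT (21 called) it was 9 with the compared groups alone. The causes were not tested.

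Same-numbered libraries did not in general deviate together (median correlation of their deviations from the group means 0.00105, between -0.179 and 0.352). The correlation exceeded 0.1 in 3.03% of same-numbered pairs. The numbers thus gave no general sign of pairing, but a median over all pairs cannot exclude pairing in some groups. With the replicate block 2 genes rather than 1 were called for starvation in the GCN2-deletion line, and of the 640 gene results 3 lost and 6 gained a call.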
